A study of Mus musculus with 3 samples.

Results

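Transcripts of 9 genes of myostatin and activin signalling were followed in single-cell RNA sequencing of mouse flexor digitorum longus (FDL) tendons, of 32285 genes counted in all. They were chosen by symbol, and each symbol matched 1 gene of the files. The set holds the ligand genes *Mstn*, *Gdf11*, *Inhba* and *Inhbb*, the antagonist genes *Fst* and *Fstl3*, the type II receptor genes *Acvr2a* and *Acvr2b*, and the type I receptor gene *Acvr1b*. The choice of this set was made knowing that *Mstn* was higher in tenocytes of DTR tendons, so that difference is given as a description and supports nothing by itself.

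Each group was 1 library of 16 pooled tendons, called WT (6 M WT in the plots), DTR (6 M DTR) and B6 (21 M B6), where M stands for months of age. Depleted mice (Scx-Cre+; DTR F/+) carry Cre under the Scleraxis (*Scx*) promoter, which makes cells of the Scleraxis lineage express a receptor for diphtheria toxin, and *Scx* is also active outside tendon, so lineage cells elsewhere can carry the receptor. WT mice were littermates without Cre (Scx-Cre-; DTR F/+). Both had 5 daily injections of diphtheria toxin (DT) into the hind paw at 3 months and, by the study's methods, were harvested at 6 months, whereas their labels give an age of 3 months. B6 mice (genotype C57/Bl6) were 21 months old and had no DT, and the labels give the strain C57BL/6J for all 3 libraries. WT tendons were digested for 120 min, DTR and B6 tendons for 90 min. Genotype and digestion time cannot be told apart between DTR and WT, nor can age, DT, genotype and digestion time between B6 and WT. The mix of female and male cells also differed between the libraries, as did the mitochondrial share of the cells.

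Myostatin, its close relative GDF11 and the activins are secreted ligands of the transforming growth factor-β family. Activins are dimers of inhibin β chains, of which *Inhba* encodes the βA chain and *Inhbb* the βB chain. The ligands bind the type II receptors encoded by *Acvr2a* and *Acvr2b*, which then activate a type I receptor such as that of *Acvr1b*, and the signal passes through SMAD2 and SMAD3. Follistatin (*Fst*) and follistatin-like 3 (*Fstl3*) bind these ligands outside the cell and keep them from their receptors. Myostatin is best known as a brake on muscle growth made by muscle fibres, and mice without it have small and stiff tendons.

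The DNA just before the *Mstn* start site is shown because *Mstn* is the member on which the results turn, and because Scleraxis belongs to the basic helix-loop-helix factors, which bind E-boxes. Whether Scleraxis binds there or acts on *Mstn* was not tested. The 250 bases upstream of *Mstn* (RefSeq, GRCm38.p6, chr1:53061390-53061639, plus strand) read as follows, with E-boxes (CANNTG, the same on both strands) and the TATA box (TATAAA) in capitals.
Mstn: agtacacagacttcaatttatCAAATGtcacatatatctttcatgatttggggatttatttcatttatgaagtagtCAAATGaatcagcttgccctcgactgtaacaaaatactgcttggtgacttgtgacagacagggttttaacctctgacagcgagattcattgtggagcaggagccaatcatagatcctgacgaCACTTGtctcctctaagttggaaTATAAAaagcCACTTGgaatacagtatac
The 4 E-boxes begin 229, 174, 52 and 19 bases before the start site and the TATA box 29 bases before it, and none of them overlap. At least 4 E-boxes were found in 3.86% of 27025 promoter windows of this length and at least 1 in 66.0%, while TATAAA on either strand was found in 13.0%. The motif CAGAC, which SMAD proteins bind, occurs 2 times in the *Mstn* window counting both strands, as often or more often in 11.7% of windows. Of the 8 members with a window in the table, *Fstl3* had 3 E-boxes, *Gdf11* and *Acvr1b* 1 each and *Inhba*, *Inhbb*, *Acvr2a* and *Acvr2b* none.

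Keeping cells with 1000 to 5000 detected genes and a mitochondrial share of up to 10% left 8357 cells of WT, 6554 of DTR and 4798 of B6 at medians of 13008, 12328 and 12914 unique molecular identifiers (UMIs). They were sorted into classes by lists of marker genes that hold no member. This gave 5198, 2713 and 838 tenocyte-like cells in WT, DTR and B6, 990, 946 and 2200 epitenon-like cells, 560, 1070 and 477 macrophage-like cells and 153, 200 and 46 mural-like cells, the last being pericytes and smooth muscle cells of vessels. There were 126, 320 and 82 T cell-like, 164, 157 and 154 endothelial-like, 88, 107 and 57 Schwann-like and 56, 75 and 89 satellite-like cells. All 8 tenocyte markers were detected in tenocyte-like cells, and clustering put 95.4% of these cells into a tenocyte cluster. In the epitenon cluster lay 95 tenocyte-like cells of WT, 269 of DTR and 11 of B6, and those of DTR held 824 *Mstn* UMIs, or 236 CPM. Cells that passed the myofibre gate (27, 88 and 57) lay mostly in the epitenon (48.3%) and tenocyte (43.0%) clusters, so they are not read as muscle fibres. Cells left without a class made up 11.9%, 13.4% and 16.6% of the libraries, and 76, 65 and 61 barcodes were shared between pairs of libraries.

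Levels are UMIs summed over the cells of a class, divided by all UMIs of that class and scaled to 1000000 (CPM), with exact 95% Poisson intervals, and ratios of CPM have exact intervals from both counts. All intervals cover counting error only. With 1 library per group there is no replicate check and no test was made, so "higher" and "lower" compare libraries and not conditions. A gene was counted as differing where its CPM ratio was at least 2-fold, if it reached 5 CPM in either library.

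*Mstn* was the member that differed most in tenocyte-like cells. It had 934 UMIs in WT, 9785 in DTR and 447 in B6. As levels these are 13.3 CPM (12.5 to 14.2) in WT, 272 CPM (266 to 277) in DTR and 44.1 CPM (40.1 to 48.4) in B6. The library of depleted tendons thus stands highest, that of aged tendons lies between, and the 3 intervals do not overlap. The ratio to WT was 20.4 (19.1 to 21.9) in DTR and 3.31 (2.95 to 3.71) in B6, and the ratio of B6 to DTR was 0.162. In the same cells, 2.91% of 9402 genes were at least 2-fold higher in DTR than in WT and 1.64% at least 2-fold lower. In B6 it was 3.38% of 9196 genes higher and 3.37% lower. *Mstn* was the only member past 2-fold in DTR tenocyte-like cells, 1 of the 6 members with at least 5 CPM, and since the choice of members used this contrast nothing is read from that count.

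**Figure D1:**
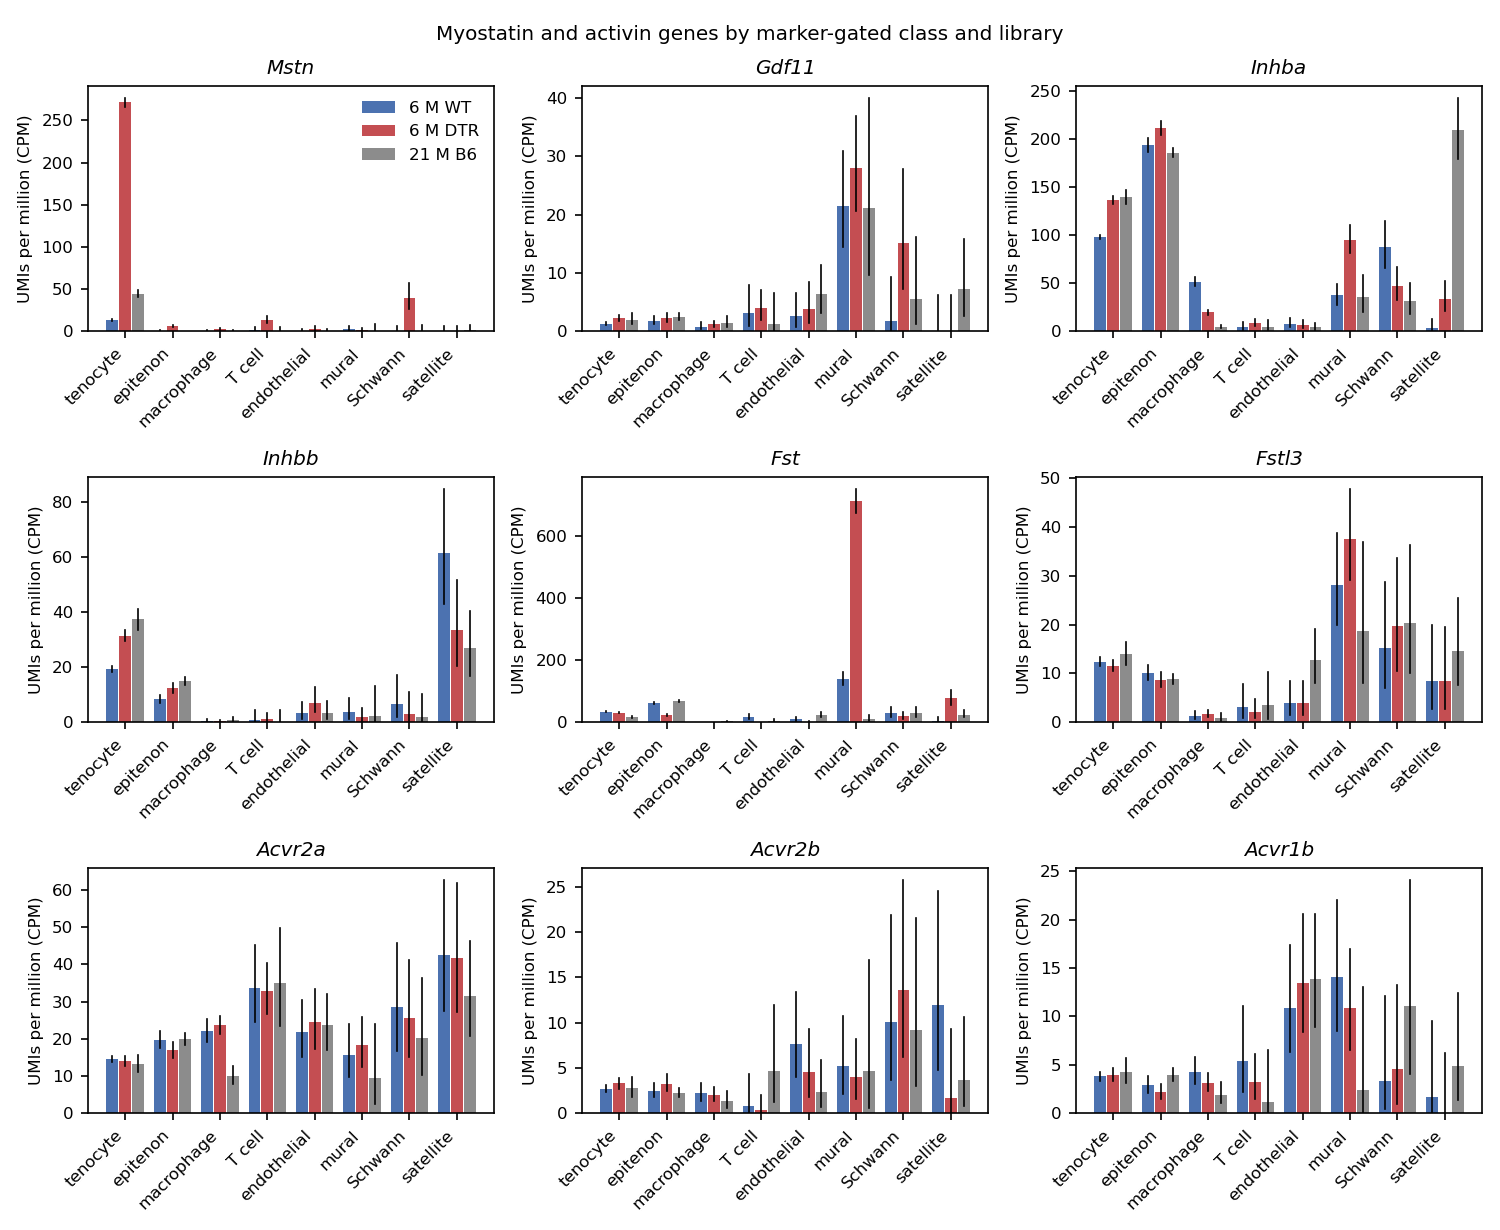
Levels of the 9 members (CPM) in 8 marker-gated classes, with 1 bar per library and exact 95% Poisson intervals as black lines. *Mstn* stands at 272 CPM in tenocyte-like cells of DTR, *Fst* at 711 CPM in mural-like cells of DTR, and the *Inhba* bar of satellite-like cells of B6 comes from 1 cell with 167 of its 172 UMIs.

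Most tenocyte-like cells held no *Mstn* UMI in any library, and the transcripts were concentrated in a minority of cells. UMIs were found in 114 of 5198 cells in WT, 584 of 2713 in DTR and 66 of 838 in B6. With cells thinned to 2000 UMIs each, which sets equal depth, 1.12% (0.848 to 1.44) of tenocyte-like cells were positive in WT, 13.0% (11.7 to 14.3) in DTR and 3.58% (2.43 to 5.08) in B6, with exact binomial intervals. In thinned macrophage-like cells, 0.357% were positive in WT, 0.281% in DTR and 0 of 477 in B6. Without thinning, 5 of 560, 18 of 1070 and 2 of 477 macrophage-like cells were positive. At least 5 *Mstn* UMIs were held by 48, 313 and 20 tenocyte-like cells, and the highest cell held 80, 332 and 108. The 5 highest cells together held 34.3% of *Mstn* UMIs in WT, 10.7% in DTR and 48.5% in B6, so the B6 level rests on few cells.

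**Figure D2:**
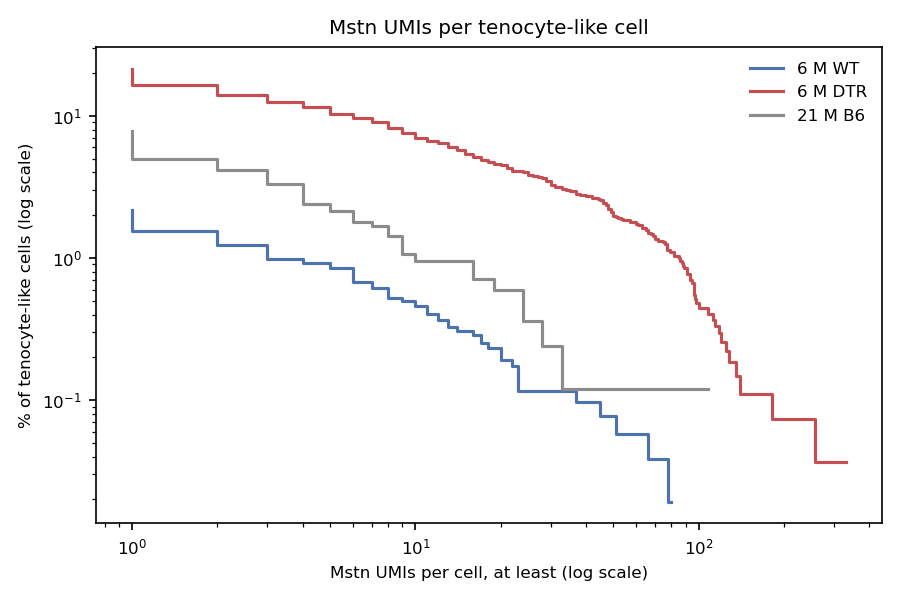
Share of tenocyte-like cells (%, log scale) holding at least the number of *Mstn* UMIs on the horizontal axis (log scale), 1 line per library, without thinning. The line of DTR lies above the others throughout, starting at 21.5% of cells with at least 1 UMI against 2.19% in WT and 7.88% in B6.

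The difference in *Mstn* between DTR and WT had the same direction in cells of both sexes. Cells were called female by *Xist* and male by Y-linked transcripts, and the libraries differed in their mix, with 5104 female and 1991 male cells in WT, 2145 and 3101 in DTR and 2164 and 1711 in B6. In female tenocyte-like cells *Mstn* stood at 8.97 CPM in WT, 119 CPM in DTR and 63.9 CPM in B6, which gives ratios to WT of 13.2 and 7.12. In male cells the levels were 22.6, 363 and 37.4 CPM, with ratios of 16.1 and 1.66. The B6 levels came from 266 *Mstn* UMIs in female and 138 in male cells. With 108 of the 447 *Mstn* UMIs of B6 in 1 cell, the B6 ratio of either the female or the male cells rests in part on that cell. Within each sex the ratio of DTR to WT was below the 20.4 over all tenocyte-like cells. The part of the sex mix in that value was not tested.

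Muscle transcripts in tenocyte-like cells also differed between the libraries. All 7 myofibre markers were detected in tenocyte-like cells of each library, at a summed 19.7 CPM in WT, 68.4 CPM in DTR and 108 CPM in B6. Among tenocyte-like cells with no UMI of these markers, *Mstn* stood at 13.6 CPM in WT, 274 CPM in DTR and 25.9 CPM in B6. The ratio to WT in such cells was 20.2 in DTR and 1.91 in B6, against 20.4 and 3.31 over all tenocyte-like cells. The part of muscle RNA in the *Mstn* levels was not tested.

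*Mstn* was sparse in most classes other than tenocyte-like cells. Epitenon-like cells had 0.387 CPM in WT, 5.81 CPM in DTR and 0.181 CPM in B6, and macrophage-like cells 0.653, 2.60 and 0.291 CPM. In epitenon-like cells, where *Mstn* counted as higher in DTR than in WT, so did 0.546% of 9518 genes. It passed the minimum of 5 CPM there only through DTR and by little, so nothing is read from that call. Mural-like and endothelial-like cells had at most 3 UMIs in any library, and satellite-like cells, the stem cells of muscle, had 0, 0 and 1. T cell-like and Schwann-like cells of DTR reached 12.9 and 39.3 CPM, where single cells held 32 of 36 and 23 of 26 UMIs. Per 1000 UMIs of the tenocyte markers, tenocyte-like cells of DTR held 20.7 *Mstn* UMIs, macrophage-like cells 22.7 and epitenon-like cells 29.7, while T cell-like cells held 88.2, Schwann-like cells 70.8, endothelial-like cells 16.9 and mural-like cells 4.69. Cells of the myofibre gate held 0, 79 and 0 *Mstn* UMIs in WT, DTR and B6, in DTR 43.4 per 1000 tenocyte marker UMIs. Cells without a class stood at 3.32, 34.6 and 9.71 CPM, and those of them in the tenocyte cluster at 7.97, 83.5 and 31.9 CPM. The part of RNA released from broken cells in these levels was not tested.

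Within tenocyte-like cells, *Mstn* was not evenly spread over subsets of cells defined by the leading marker set. In WT, the 92 cells led by *Igfbp3* and *Scn7a* held 464 of the 934 *Mstn* UMIs, a level of 369 CPM (336 to 404). Cells led by *Kera* and *Ucma* stood at 4.43 CPM, those led by *Slurp1*, *Serpinb7* and *Vcan* at 2.93 CPM, those led by *Saa1*, *Saa2* and *Lcn2* at 8.46 CPM and cells with no UMI of these genes at 20.4 CPM. The other 4 subsets of WT held the remaining UMIs at far lower levels. In DTR the *Igfbp3* and *Scn7a* cells (139 cells) were again highest, at 754 CPM (714 to 795), yet *Mstn* was also at 279 CPM in *Kera* and *Ucma* cells, 125 CPM in *Slurp1*, *Serpinb7* and *Vcan* cells, 64.4 CPM in *Saa1*, *Saa2* and *Lcn2* cells and 423 CPM in cells with none of them. All 5 subsets were above their WT level, and the 1025 cells with none of these markers held 5042 of the 9785 *Mstn* UMIs. In B6 the levels in the same order were 139, 38.6, 81.7, 20.6 and 19.7 CPM, with the *Igfbp3* and *Scn7a* cells (51 cells) below those of WT and the next 3 subsets above.

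**Figure D3:**
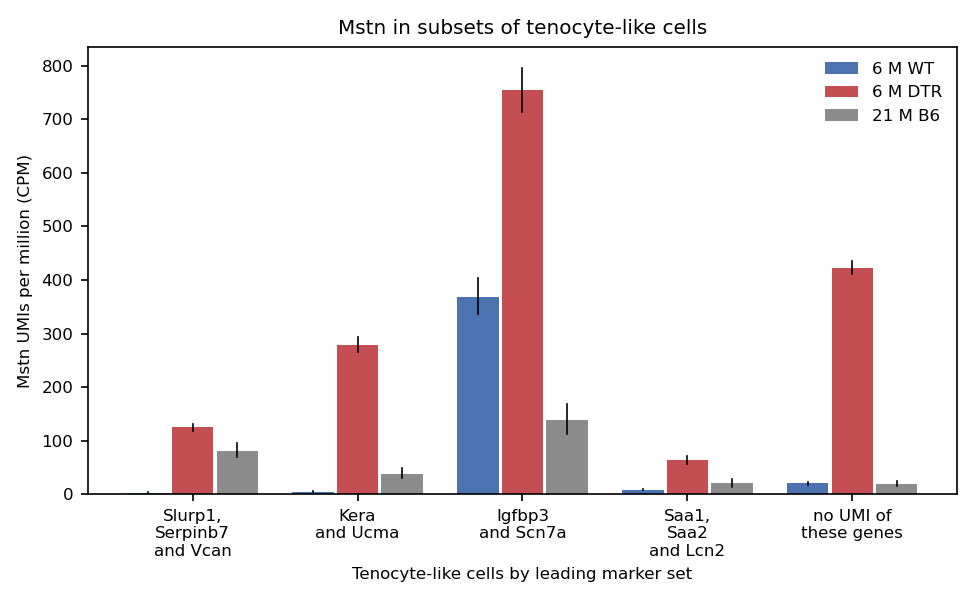
*Mstn* level (CPM) in tenocyte-like cells grouped by the marker set with the highest scaled level, 1 bar per library, with exact 95% Poisson intervals as black lines. Cells led by *Igfbp3* and *Scn7a* are the highest subset in each library, at 369, 754 and 139 CPM in WT, DTR and B6.

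Tenocyte-like cells with at least 5 *Mstn* UMIs were then set against those of the same library with none. Median depths of the former and the latter were 13482 and 12926.5 UMIs in WT, 12152 and 12668 in DTR and 14741 and 11270 in B6. The 10 genes with the highest ratio in DTR, among those with at least 50 CPM in the *Mstn* cells, were *Chodl*, *Tac1*, *Ptn*, *Mfap2*, *Nid1*, *Cthrc1*, *F2r*, *Hbb-bt*, *Kera* and *Fbln7*, a list chosen after its values were seen. *Chodl*, a membrane lectin that is also a satellite cell marker, was 7.41-fold higher (6.25 to 8.78) in *Mstn* cells of DTR, 31.7-fold in WT and 6.96-fold in B6. The other satellite markers of the gate were not compared between these cells, so nothing is read from *Chodl* about identity. *Tac1*, which encodes the precursor of the neuropeptide substance P, was 6.47-fold higher in DTR, 42.1-fold in WT and 5.21-fold in B6. *Fbln7*, an adhesion protein of the matrix, was 3.80-fold, 193-fold and 15.0-fold higher in the same order. These 3 genes, with *Ptn*, *Nid1*, *F2r* and *Kera*, were higher in *Mstn* cells of all 3 libraries with intervals above 1. *Hbb-bt*, a haemoglobin gene, was higher only in DTR, with 2 UMIs in *Mstn* cells of WT and 0 in those of B6.

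Levels of the 8 tenocyte markers were compared between the same cells. All of these cells had been gated by those markers, so the ratios are no check of identity. *Tnmd*, a membrane protein of mature tenocytes, was 1.88-fold higher in *Mstn* cells of WT, 3.06-fold in DTR and 2.22-fold in B6, and *Thbs4*, a matrix glycoprotein of tendon and muscle attachment, 2.87-, 2.19- and 2.06-fold. *Kera*, a keratan sulphate proteoglycan, was 8.30-, 3.92- and 2.89-fold higher. *Cilp2*, a matrix protein, went the other way at 0.325, 0.908 and 0.685, and *Fibin*, a secreted protein, at 0.458, 0.935 and 0.735. *Fmod*, the collagen-binding fibromodulin, stood at 1.28, 1.40 and 0.826, and the transcription factor gene *Mkx* at 1.13, 1.15 and 0.682. The 8 markers thus did not share 1 direction. *Scx* had ratios of 0.715 (0.517 to 0.964), 0.982 (0.890 to 1.08) and 1.07 (0.703 to 1.58). Other members did not share 1 direction. *Inhba* was 3.08-fold higher in *Mstn* cells of WT, at a ratio of 1.03 (0.945 to 1.13) in DTR and of 0.112 (0.0363 to 0.262) in B6, where they held 5 *Inhba* UMIs. *Inhbb* had ratios of 0.644, 0.434 and 0.247. *Fst* had 0 UMIs in the 48 *Mstn* cells of WT and ratios of 0.550 (0.428 to 0.697) in DTR and 0.760 (0.204 to 1.98) in B6.

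**Figure D4:**
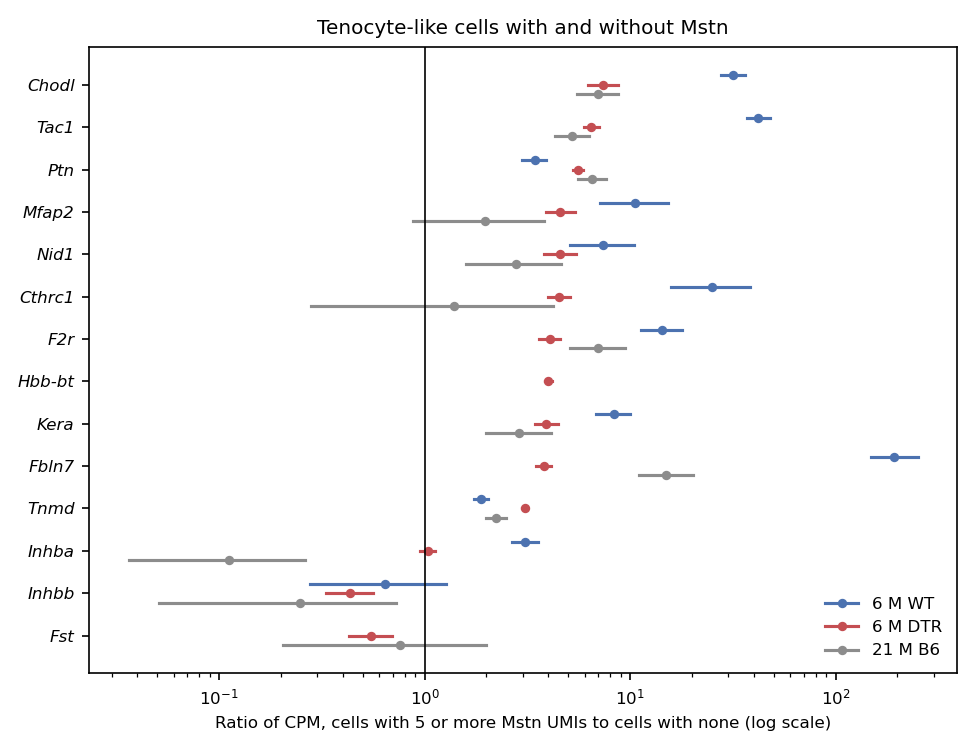
Ratio of CPM (log scale) between tenocyte-like cells with at least 5 *Mstn* UMIs and those with none in the same library, with exact 95% intervals, for the 10 leading genes of DTR and for *Tnmd*, *Inhba*, *Inhbb* and *Fst*. Points with fewer than 3 UMIs in the *Mstn* cells are not drawn. *Chodl*, *Tac1* and *Fbln7* lie above 1 in all 3 libraries, at 7.41, 6.47 and 3.80 in DTR.

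Across the 27 sums of 9 classes and 3 libraries, the genes most like *Mstn* were *Cemip* (Pearson's r = 0.80), *Uts2r* (0.70), *Fbln7* (0.69), *Clec3a* (0.68), *Hapln1* (0.66), *Clec11a* (0.64), *Ank* (0.63), *Atp6v0a4* (0.63), *Fibin* (0.63) and *Cyp26a1* (0.62), on log2(CPM + 1). These sums share libraries and depth and include the myofibre gate, so r is a description. The genes were picked over sums that include tenocyte-like cells of DTR, where *Mstn* was highest, so nothing is read from their levels there. *Cemip*, a hyaluronan-degrading protein, stood at 3.99, 27.9 and 6.21 CPM in tenocyte-like cells of WT, DTR and B6. *Fbln7* stood at 4.63, 78.7 and 25.9 CPM and *Hapln1*, a link protein of hyaluronan and proteoglycans, at 5.44, 23.5 and 2.07 CPM. *Atp6v0a4*, at 147, 148 and 37.0 CPM, and *Fibin*, at 1120, 1171 and 546 CPM, followed the tenocyte-like class but were lower in B6, and *Fibin* is one of the genes by which tenocytes were gated.

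*Inhba* was found in tenocyte-like, epitenon-like, mural-like and Schwann-like cells and in a few macrophage-like cells. In tenocyte-like cells it stood at 97.6 CPM (95.3 to 99.95) in WT, 136 CPM (132 to 140.0) in DTR and 139 CPM (132 to 147) in B6, so that both other libraries were above WT, with ratios of 1.39 and 1.43. The thinned shares of positive cells were 12.3%, 18.4% and 15.9%. Epitenon-like cells, from the sheath that surrounds the tendon, had a higher level in each library, at 193, 211 and 186 CPM, with ratios of 1.09 (1.04 to 1.15) and 0.960 (0.919 to 1.00). In mural-like cells *Inhba* was at 37.1 CPM in WT, 94.7 CPM in DTR and 35.2 CPM in B6, a ratio of 2.55 (1.85 to 3.57) in DTR. That ratio was 1.60 (0.939 to 2.72) in female mural-like cells, below 2-fold, and 4.40 (2.16 to 10.4) in male ones, from 8 UMIs in WT. In mural-like cells, 7.60% of 10299 genes were at least 2-fold higher in DTR than in WT.

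Macrophage-like cells had the opposite order for *Inhba*. Levels were 51.4 CPM (46.8 to 56.2) in WT, 19.4 CPM (17.2 to 21.7) in DTR and 4.50 CPM (3.06 to 6.39) in B6, with ratios to WT of 0.377 (0.325 to 0.438) and 0.0877 (0.0589 to 0.126). At least 2-fold lower than in WT were 1.64% of 9045 genes in DTR and 3.39% of 9140 genes in B6. Few cells carried it, with 50 of 560, 71 of 1070 and 15 of 477 positive cells, and the 5 highest cells held 67.8%, 61.9% and 67.7% of the UMIs. The order between WT and DTR turned with sex. In female macrophage-like cells the ratio of DTR to WT was 0.102, and in male cells 2.87, from 223 UMIs in DTR and 24 in WT. With no upper limit on genes per cell the ratio over both sexes was 0.762, within 2-fold. In macrophage-like cells with low MHC class II genes *Inhba* stood at 55.8, 11.6 and 1.79 CPM and in those with high MHC class II genes at 43.7, 24.5 and 8.08 CPM in WT, DTR and B6.

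Other myeloid cells next to the macrophages had a higher *Inhba* level than macrophage-like cells in each library. In the macrophage cluster, 95 cells of WT, 92 of DTR and 53 of B6 had no class by the gate. They held 2036, 131 and 12 *Inhba* UMIs, which is 1674 CPM, 83.3 CPM and 13.1 CPM. Macrophage-like cells held 472, 291 and 31 *Inhba* UMIs, fewer only in WT. In WT, 38 of these 95 cells were positive and the 5 highest held 46.7% of the UMIs. With the 3 libraries summed, the 10 genes that led these cells over macrophage-like cells were *S100a9*, *Il12b*, *S100a8*, *G0s2*, *Cstdc4*, *Apol7c*, *Ccl22*, *Ccr7*, *Il1f9* and *Cma1*. Several of these genes are known from neutrophils or dendritic cells. The complement genes *C1qa*, *C1qb* and *C1qc* mark macrophages. They summed to 429, 1095 and 321 CPM in the cells without a class, against 5743, 6133 and 7343 CPM in macrophage-like cells.

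*Inhbb* had its highest levels in tenocyte-like and satellite-like cells. In tenocyte-like cells it stood at 19.4 CPM (18.4 to 20.4) in WT, 31.4 CPM (29.6 to 33.3) in DTR and 37.3 CPM (33.6 to 41.2) in B6, with ratios of 1.62 (1.497 to 1.76) and 1.92 (1.71 to 2.16). In epitenon-like cells the same order was found at 8.31, 12.4 and 14.9 CPM, with ratios of 1.495 and 1.79. In male epitenon-like cells these ratios were 0.984 (0.667 to 1.47) and 1.16 (0.821 to 1.67), so the order did not hold there. In female tenocyte-like cells the ratio of DTR to WT was 2.05 and in male cells 1.15, and under TMM scaling the ratio of B6 was 2.25, past 2-fold. Satellite-like cells held 36, 20 and 22 UMIs (61.2, 33.5 and 26.7 CPM). Macrophage-like, T cell-like and mural-like cells had at most 6 UMIs in any library. The genes most like *Inhbb* over the same sums were *Sox9* (r = 0.89), *Dnajc25* (0.87), *Ghr* (0.86), *Ppl* (0.86) and *Sgk1* (0.85).

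*Gdf11* was scarce in the tendon cells and clearest in mural-like cells, where 29, 49 and 9 UMIs gave 21.5 CPM (14.4 to 30.9) in WT, 27.9 CPM (20.7 to 36.9) in DTR and 21.1 CPM (9.65 to 40.1) in B6. The 3 intervals overlap. In tenocyte-like cells it stood at 1.28, 2.16 and 1.97 CPM, with ratios to WT of 1.69 (1.23 to 2.31) and 1.54 (0.897 to 2.52), below the minimum level set for counting a difference.

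Of the antagonists, *Fst* differed in opposite directions in mural-like and epitenon-like cells of DTR. In mural-like cells it had 187 UMIs in WT, 1247 in DTR and 4 in B6. The levels were 139 CPM (120 to 160), 711 CPM (672 to 752) and 9.38 CPM (2.56 to 24.0), ratios to WT of 5.12 (4.39 to 6.00) and 0.0675 (0.0182 to 0.176). The DTR library thus had the highest level and the B6 library the lowest, the latter from 46 cells of which 1 was positive. In DTR, 81 of 200 mural-like cells were positive, or 29.0% (22.8 to 35.8) after thinning, against 27 of 153 and 11.8% (7.12 to 18.0) in WT, and the 5 highest cells held 39.8% and 64.7% of the UMIs. With a mitochondrial limit of 5% the ratio of DTR to WT was 2.78. That limit left 46 of 153 mural-like cells in WT, 82 of 200 in DTR and 2 of 46 in B6. Clustering put 99.0% of mural-like and 99.4% of endothelial-like cells into the same cluster, so no mural result could be checked in clusters. In mural-like cells 21.0% of 9949 genes were at least 2-fold lower in B6 than in WT, so a low value there is common.

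In epitenon-like cells *Fst* stood at 60.9 CPM (57.1 to 64.9) in WT, 22.2 CPM (19.8 to 24.7) in DTR and 67.8 CPM (65.0 to 70.7) in B6. The depleted library was the lowest, at 0.364 (0.320 to 0.413) times WT, where 1.68% of 9518 genes were at least 2-fold lower. In tenocyte-like cells *Fst* stood at 34.1, 30.1 and 16.9 CPM, with ratios of 0.882 (0.820 to 0.948) in DTR and 0.495 (0.421 to 0.578) in B6. The former was 1.24 in female cells, the other direction. The ratio of B6 lay at the edge of the 2-fold limit and was 0.578 under TMM scaling, which no longer passes it. In endothelial-like cells *Fst* was at 8.93, 1.28 and 23.6 CPM from 14, 2 and 41 UMIs, of which 5 cells held 95.1% in B6. The mural markers summed to 922, 857 and 3067 CPM in endothelial-like cells of WT, DTR and B6. The part of mural RNA in these *Fst* levels was not tested.

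*Fstl3* stayed within 2-fold in tenocyte-like and epitenon-like cells. In tenocyte-like cells it stood at 12.4, 11.5 and 14.0 CPM, with ratios of 0.926 (0.822 to 1.04) and 1.13 (0.938 to 1.35), and in epitenon-like cells at 10.0, 8.64 and 8.82 CPM. Mural-like cells had a higher *Fstl3* level than tenocyte-like cells in each library, as for *Fst* in WT and DTR but not in B6. Their *Fstl3* levels were 28.2, 37.6 and 18.8 CPM, the last from 8 UMIs. Endothelial-like cells had 3.83, 3.85 and 12.7 CPM from 6, 6 and 22 UMIs, with B6 highest. Endothelial-like cells of B6 also held the most RNA of mural markers, and its part in these *Fstl3* levels was not tested. The genes most like *Fst* over the class sums were *Plekhh3* (r = 0.81), *Fstl3* itself (0.79), *Arhgap42* (0.79), *Rarres2* (0.79) and *Gpc6* (0.78), and those most like *Fstl3* were *Rarres2* (0.91), *Spry2* (0.90), *Arhgef17* (0.90), *Trpc1* (0.89) and *Nhs* (0.88).

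The receptor genes had low levels that differed between classes. *Acvr2a* stood at 14.5, 14.0 and 13.1 CPM in tenocyte-like cells of WT, DTR and B6, with ratios of 0.965 (0.865 to 1.07) and 0.905 (0.749 to 1.08), and at 19.8, 16.9 and 19.9 CPM in epitenon-like cells. T cell-like cells had 33.8, 32.9 and 34.9 CPM and satellite-like cells 42.5, 41.8 and 31.6 CPM. In macrophage-like cells the level was lower in B6, with 22.0 CPM (19.1 to 25.2), 23.6 CPM (21.2 to 26.2) and 10.0 CPM (7.80 to 12.7), a ratio of 0.456 (0.342 to 0.602) in B6. This order held in macrophage-like cells with high MHC class II genes, at 23.3, 23.9 and 8.75 CPM, and with low MHC class II genes, at 21.2, 23.1 and 10.99 CPM.

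*Acvr2b* stood at 2.69, 3.27 and 2.76 CPM in tenocyte-like cells and *Acvr1b* at 3.79, 3.91 and 4.24 CPM, from 189, 118 and 28 UMIs and from 266, 141 and 43 UMIs. Their ratios to WT lay between 1.03 and 1.22, and all 4 intervals included 1. *Acvr1b* was higher in endothelial-like cells, at 10.8, 13.5 and 13.8 CPM, than in tenocyte-like cells of the same library. In mural-like cells it stood at 14.1, 10.8 and 2.35 CPM, from 19, 19 and 1 UMIs, and *Acvr2b* in endothelial-like cells at 7.66, 4.50 and 2.30 CPM, from 12, 7 and 4 UMIs. Differences of the size seen in tenocyte-like cells were not detectable at these counts.

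**Figure D5:**
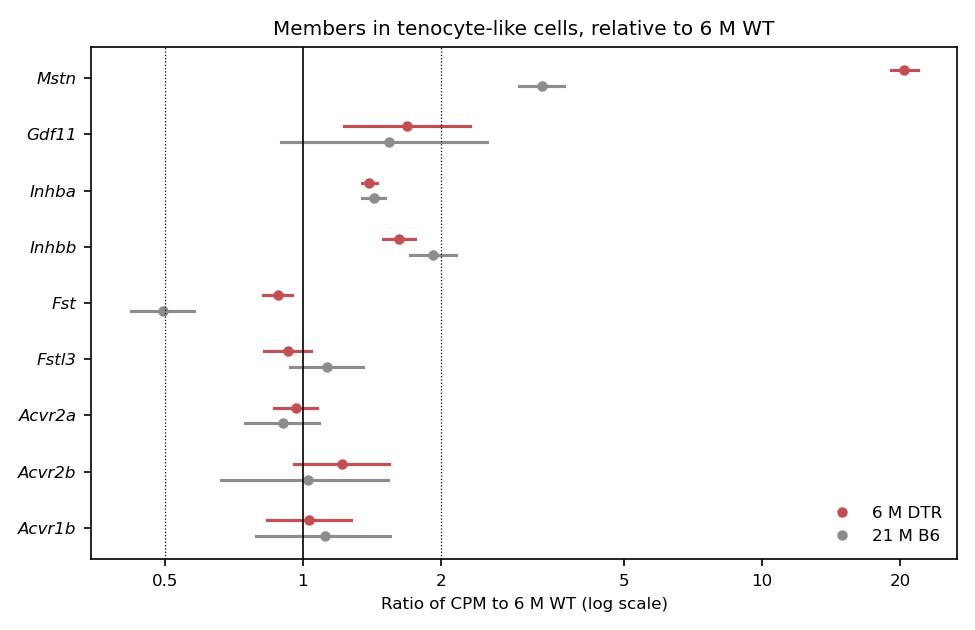
Ratio of CPM to WT (log scale) for each member in tenocyte-like cells of DTR and B6, with exact 95% intervals, a solid line at 1 and dotted lines at 2-fold. *Mstn* lies at 20.4 and 3.31, *Inhba* and *Inhbb* between 1.39 and 1.92, and the receptors between 0.905 and 1.22.

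In B6 tenocyte-like cells, 2 of 6 members with at least 5 CPM passed 2-fold, *Mstn* higher and *Fst* lower. Over all 9196 genes, 3.38% were higher and 3.37% lower. The count of members was 1 under 6 of 13 alternatives, so nothing is read from it. The median log2 ratio of the 6 members includes *Mstn*, known to be higher in DTR when the set was chosen, so nothing is read from it either. It was 0.21 in DTR, beside 0.04 over all genes, and 0.34 in B6, beside −0.27 over all genes. Scaling by TMM factors, which corrects such a shift, changed the *Mstn* ratio of B6 to 3.87 and that of DTR to 18.9.

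A list of 33 further genes of the pathway was described in the same cells, of which 21 had at least 5 CPM. In DTR, 2 of the 21 were at least 2-fold higher than in WT and 0 lower, beside 2.91% higher and 1.64% lower over all genes. Of the 2, *Ccn2* encodes a matrix-associated growth factor, and SMAD signalling is known to induce the gene. *Ccn2* stood at 821, 1794 and 1145 CPM, with ratios of 2.18 (2.16 to 2.21) and 1.39. Within 2-fold were further targets on the list, with *Skil* at 1.12, *Pmepa1* at 1.30 and *Tgfbi* at 0.702 times WT in DTR. *Smad7*, the inhibitory SMAD, was at 80.8, 115 and 105 CPM. In B6, 0 of the 21 passed 2-fold in either direction, beside 3.38% higher and 3.37% lower over all genes. The median log2 ratio of the list was 0.20 in DTR and 0.13 in B6, beside the same 0.04 and −0.27 over all genes. Among the remaining list genes, receptors *Acvr1* and *Tgfbr1* were at ratios of 1.26 and 0.991 in DTR, and the convertase genes *Furin* and *Pcsk6* and the activating protease gene *Bmp1* at 0.997, 0.786 and 1.18. Decorin (*Dcn*), a matrix proteoglycan that binds myostatin, stood at 33713, 31915 and 31148 CPM.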

How the data were processed

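The authors made 1 library per group with the 10x Genomics Chromium 3′ kit (version 3) from 16 pooled FDL tendons and deposited UMI counts for each gene and barcode, not normalized. The file headers name Cell Ranger 6.0.1 and the submitters' processing notes Cell Ranger 2.1.1, and the genome build is not given in the sources used here. The files hold 148149903, 123918145 and 92707026 UMIs for WT, DTR and B6, and 113520862, 85926015 and 65736291 UMIs remained after the filter.

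Each marker was log-normalized and divided by the mean of its 200 highest cells. A cell took the class with the highest mean over its markers if this was at least 0.15 and 1.5 times the next class. Limits were set on the markers alone. The tenocyte markers were *Tnmd*, *Fmod*, *Cilp2*, *Fibin*, *Thbs4*, *Kera*, *Mkx* and *Scx*, and the myofibre markers *Acta1*, *Tnnc2*, *Ckm*, *Myh4*, *Mylpf*, *Tnnt3* and *Ttn*. Scrublet called 1, 6 and 1 doublets, too few to have worked, so doublets were kept. Near the gate's limits lay 250, 230 and 166 cells. Clusters came from Seurat 5.3.0 in R 4.3.3 (20 dimensions, resolution 0.1, 1989 features without members or pathway genes).

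Counts were summed per class and library. Thinning used 2000 UMIs per cell. No test was possible with 1 library in each group. Members and lists were chosen with earlier results of these data known. Genes named beyond the members are markers, genes of the pathway list past 2-fold in tenocyte-like cells and others of that list within 2-fold. Also named are the 10 genes most like *Mstn* and the 5 most like each of *Inhbb*, *Fst* and *Fstl3*. Likeness used log2(CPM + 1), genes with at least 20 CPM in 1 sum and sums of at least 200000 UMIs. The genes most like the remaining members are not named. Genes that led a comparison of cells were chosen after their values were seen. The values of 1 pathway gene past 2-fold are not reported here. The calculation of ratios and their intervals was checked on simulated Poisson counts. The intervals assume such counts, so this checked the calculation only and not the spread between cells or mice. Alternatives changed the filter, doublets, gate, classes, scaling (edgeR 4.0.16), sex of the cells, myofibre UMIs, thinning and positivity. The versions were matplotlib 3.10.9, scanpy 1.11.5, pandas 2.3.3, scipy 1.17.1 and numpy 2.4.6 in Python 3.11.15.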

Additional observations from a re-analysis of the deposited data

Results flagged for a closer look

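*Inhba* differed in opposite directions between classes of the same libraries. In DTR it was 2.55 times its WT level in mural-like cells and 0.377 times in macrophage-like cells. The former kept its direction but was 1.60 in female mural-like cells, within 2-fold and with an interval that included 1. The latter turned to 2.87 in male macrophage-like cells. In B6 it was 61.4 times its WT level in satellite-like cells, where 1 cell held 167 of 172 UMIs, and 0.0877 times in macrophage-like cells. *Fst* in DTR was 5.12 times its WT level in mural-like cells and 0.364 times in epitenon-like cells. These differences between classes were not tested, since each library is 1 sample.

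*Mstn* was also found in barcodes that the filter removed. In DTR it stood at 26.9 CPM in barcodes with over 5000 genes and at 23.6 CPM in those with under 1000 genes, against 5.62 and 4.41 CPM in WT. In barcodes with over 10% mitochondrial counts it stood at 109 CPM in DTR and 77.1 CPM in WT, from 117 and 48 UMIs, a smaller difference with a WT level far above the 8.75 CPM of the cells kept. The kept cells of DTR stood at 122 CPM. In B6 *Mstn* stood at 7.41, 1.30 and 13.7 CPM in the removed barcodes, in the same order, and at 8.52 CPM in kept cells. *Inhba* stood at 394, 387 and 379 CPM in barcodes with over 5000 genes of WT, DTR and B6, against 136, 135 and 141 CPM in kept cells.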

How the results depend on the processing

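No paired analysis was possible because each group is 1 library and no comparison rests on a test. The *Mstn* ratio of DTR to WT in tenocyte-like cells stayed above 1 under all 11 alternatives and was 26.1 with a stricter gate, 18.9 with TMM scaling, 13.2 in female cells and 16.1 in male cells. That of B6 to WT also stayed above 1, at 2.83 with a mitochondrial limit of 5%, 2.36 with the stricter gate, 3.87 with TMM scaling, 7.12 in female cells, 1.66 in male cells, 1.91 in cells without a myofibre UMI and 2.85 without the highest 5% of Scrublet scores, a setting chosen after seeing the data. The *Inhba* ratio of B6 to WT in macrophage-like cells was 0.164 with the mitochondrial limit of 5%, 0.157 with no upper limit on genes, 0.0231 in clusters, 0.206 in male cells and 0.252 in cells without a myofibre UMI. That of DTR to WT reversed to 2.87 in male cells. The *Inhba* ratio of DTR to WT in mural-like cells was 1.60 in female and 4.40 in male cells, and the *Inhbb* ratio of B6 to WT in epitenon-like cells 2.21 with TMM scaling. The number of members past 2-fold in DTR was 2 in female cells, and that in B6 was 1 with the mitochondrial limit of 5%, in clusters, with the stricter gate, without the 50 most abundant genes, in male cells and in cells without a myofibre UMI. The share of tenocyte-like cells with an *Mstn* UMI was 0.616%, 9.47% and 2.39% in WT, DTR and B6 after thinning to 1000 UMIs, 2.19%, 21.5% and 7.88% without thinning and 0.519%, 8.07% and 1.31% with at least 2 UMIs required. The cause of these changes was not tested. Depth limits the receptors, *Gdf11* and the classes of under 100 cells.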
